A study of Mus musculus with 12 samples.

Results

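The 9 genes described here, out of 39423 genes counted, encode lipases, carboxylesterases and a lipase coactivator. Their products act on stored fat or on related lipids in fat cells. They were chosen by symbol: the patatin-like genes Pnpla2, Pnpla3 and Pnpla8, hormone-sensitive lipase (Lipe), monoglyceride lipase (Mgll), the lipase coactivator Abhd5, and the carboxylesterases Ces1a, Ces1d and Ces1f. Gene expression was measured by mRNA sequencing in 3T3-L1 cells, a mouse preadipocyte line that becomes adipocyte-like under a hormone cocktail of dexamethasone, IBMX and insulin (called MDI or DMI). All 12 libraries came from induced cells, so an uninduced group was not analysed here. Cells transfected with a control siRNA (siCtrl, labelled NC) or with siRNA against Prmt1 (siPRMT1) were taken after 24 h (day 1) or 72 h (day 3) of MDI, with 3 libraries in each of the 4 groups. Below, control and knockdown stand for siCtrl and siPRMT1, and the values of a group are in order of replicate number. The model is a single cell line with a partial, transient knockdown, and the siRNA used for sequencing is not named in the sources used here.

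Stored triglyceride is broken down in steps. Adipose triglyceride lipase, encoded by Pnpla2, removes the first fatty acid, hormone-sensitive lipase the next, and monoglyceride lipase the last, which leaves glycerol. ABHD5 binds and activates the first enzyme, and perilipin 1 on the lipid droplet holds ABHD5 back until protein kinase A is activated. The carboxylesterases of the Ces1 family are serine hydrolases of the endoplasmic reticulum and lipid droplets, best known in liver, and Ces1d and Ces1f have also been studied in fat cells as triglyceride hydrolases.

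The libraries held 15116462 to 42357137 counts on genes, with a median of 23612956. Prmt1, the targeted gene, had FPKM (counts per gene length and per library total) of 82.9, 83.4 and 91.3 in control and 43.8, 38.6 and 41.4 in knockdown libraries at day 1, and of 111, 120 and 140 against 62.0, 71.7 and 68.5 at day 3. Its groups did not overlap at either day, and its log2 fold change was -1.11 at day 1 (SE 0.0758, adjusted p = 9.85e-04) and -0.88 at day 3 (SE 0.0883, adjusted p = 1.22e-05; edgeR's quasi-likelihood test with Benjamini-Hochberg adjustment over all genes tested, as for each adjusted p here). A gene is called when its adjusted p is under 0.05 and its absolute log2 fold change over 0.5. Markers of both states of the line were present in siCtrl cells. Over the list of 10 adipocyte markers the summed level was 62.3 to 79.2 FPKM at day 1, with 5 of the 10 averaging under 1 FPKM. At day 3 it was 2289 to 2548 FPKM. Over 10 preadipocyte and fibroblast markers it was 1491 to 1534 FPKM at day 1 and 530 to 557 FPKM at day 3. Over 8 hepatocyte markers the summed level stayed between 0.13 and 0.76 FPKM in every library, and over 5 endothelial markers between 0.12 and 0.98 FPKM. Over 8 macrophage markers it was 4.04 to 7.1 FPKM. Of these, Ptprc, which marks all leukocytes, was at 0 in all 4 groups, Cd14 and Cd68 had group means above 1 FPKM, and Lyz2 was called lower with knockdown at day 1.

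At day 3 most of these genes were called lower with knockdown of Prmt1, and at day 1 Pnpla2 and Ces1f were. At day 1, 2 of the 7 members tested were called lower and 0 were called higher by edgeR, where 1.61% of the 13689 genes tested were called lower and 1.95% higher. At day 3, 6 of the 9 members were called lower (Pnpla2, Lipe, Mgll, Pnpla3, Ces1d and Ces1f) and 1, Ces1a, was called higher, where 3.8% of 14039 genes were called lower and 2.84% higher. The median log2 fold change of the members tested was -0.32 at day 1 and -0.55 at day 3, beside medians of 0.0096 and 0.0073 over all genes tested. In the lower direction at day 1, 5 of the 7 log2 fold changes were below 0, 4 had an unadjusted p under 0.05 in edgeR, DESeq2 called 3 (Lipe in addition) and limma on FPKM called 2. In the higher direction 1 (Ces1a) had an unadjusted p under 0.05 in edgeR, and DESeq2 called 0. Limma on FPKM called 0 higher at day 1, but it tested 5 members, and Ces1a and Mgll were not among them. At day 3 DESeq2 called 6 lower and 1 higher. Limma tested 7 members at day 3, without Pnpla3 and Ces1a, and called 4 lower and 0 higher. Pnpla3 and Ces1d were under the filter on low counts at day 1 and were not tested there. In bulk RNA, fewer cells of a type and less RNA per cell cannot be told apart, and adipocyte markers moved with these genes: 3 of 6 tested were called lower at day 1 and 5 of 9 at day 3, where their summed level was 1813 to 1959 FPKM in siPRMT1 cells. Of 10 preadipocyte and fibroblast markers, 4 (Pdgfra, Dcn, Lum and Ly6a) were called higher at day 3, with summed levels of 530 to 557 FPKM in control and 691 to 782 FPKM in knockdown libraries, whereas at day 1 only Lum was called, lower. The part of these markers in the changes of the lipases was not tested.

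**Figure D1:**
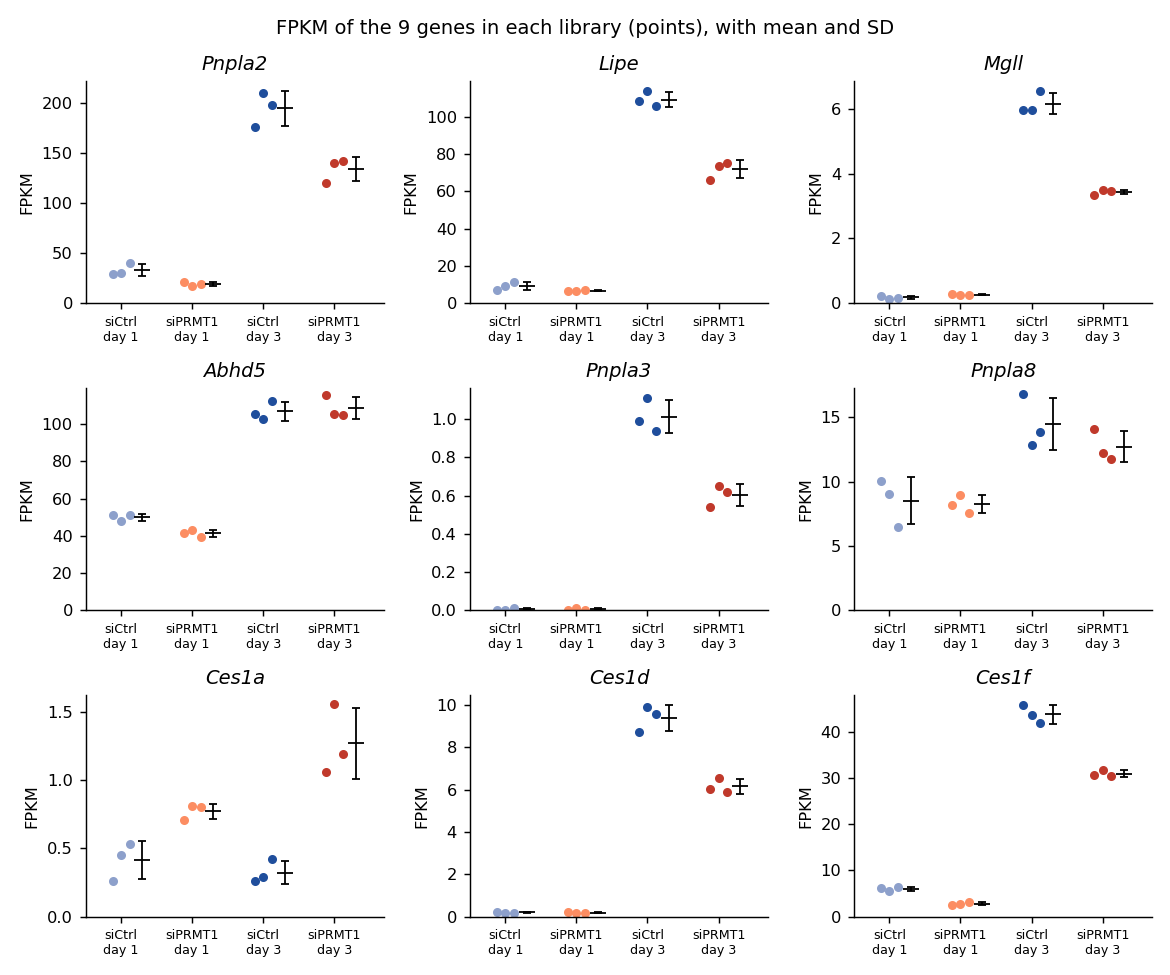
FPKM of each of the 9 genes (vertical axis, from 0, a separate scale for each gene) in the 4 groups (horizontal axis). Points are the 3 libraries of a group in order of replicate number, and the bar beside them is the mean with its SD. All genes but Ces1a were higher at day 3 than at day 1 in siCtrl cells, and Ces1a is the gene whose siPRMT1 libraries lie above the siCtrl libraries at both days.

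Pnpla2 encodes adipose triglyceride lipase and is found at 141455188 to 141460743 of chromosome 7 (GRCm38, plus strand). Its FPKM at day 1 was 29.3, 30.2 and 40.5 in control and 20.96, 17.0 and 19.4 in knockdown libraries. All 3 knockdown libraries were below all 3 control libraries, and siCtrl replicate 3 was the highest. Such separation was common among all genes tested. In CPM, control and knockdown libraries did not overlap for 31.3% of 13689 genes at day 1 and 34.9% of 14039 genes at day 3. For the members, overlap is given in FPKM, and the measures can differ. Mgll at day 1 overlapped in CPM but not in FPKM. A lack of overlap, here and for the genes below, therefore does not by itself set a gene apart. Pnpla2 fell by 0.85 on the log2 scale (SE 0.134, adjusted p = 0.0115, edgeR). By day 3 its FPKM was 176, 210 and 198 in control and 120, 140 and 142 in knockdown libraries, again without overlap. The log2 fold change was -0.55 (SE 0.0849, adjusted p = 4.31e-04, edgeR), which is a mean FPKM of 0.688 times the control level. The day 1 call was lost without siPRMT1 replicate 2 (adjusted p = 0.0573, edgeR) or replicate 3 (adjusted p = 0.0781), and the day 3 call was lost, at the fold threshold, without siCtrl replicate 2 or siPRMT1 replicate 1 (both log2 fold changes -0.48), with an adjusted p no higher than 0.00459 in any of the 6 fits. Without siCtrl replicate 3 at day 1, the log2 fold change was -0.69 (adjusted p = 6.87e-05, edgeR). The difference between the changes at the 2 days was 0.32 (95% interval -0.04 to 0.69), with an adjusted p of 0.246 for the interaction.

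Abhd5 encodes the protein that activates adipose triglyceride lipase and is found at 122351539 to 122381524 of chromosome 9 (GRCm38, plus strand). Its FPKM at day 1 was 50.9, 47.7 and 51.0 in control and 41.4, 43.0 and 39.4 in knockdown libraries. The groups did not overlap, but the difference was small, with a log2 fold change of -0.32 (SE 0.0679, adjusted p = 0.0271, edgeR), inside the fold threshold. That adjusted p stayed under 0.05 in 1 of the 6 fits without 1 library, and was up to 0.117. The day 3 FPKM was 106, 103 and 112 in control and 116, 106 and 105 in knockdown libraries. The groups overlapped, and the log2 fold change of Abhd5 was 0.02 with a 95% interval of -0.13 to 0.17 (adjusted p = 0.881, edgeR). The interval of Abhd5 at day 3 does not reach the change of Pnpla2 there, whose own interval ran from -0.73 to -0.37. The 2 changes of Abhd5 differed between the days by 0.36 (95% interval 0.16 to 0.57, adjusted p of the interaction = 0.0228, edgeR), which is also inside the fold threshold. In 5 of the 12 fits without 1 library the adjusted p was above 0.05, at most 0.0726.

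The mRNA level of Abhd5 relative to that of Pnpla2 therefore stood higher in the knockdown libraries. The ratio of Abhd5 to Pnpla2 FPKM was 1.53 ± 0.244 in control and 2.18 ± 0.310 in knockdown libraries at day 1, and 0.552 ± 0.0567 and 0.819 ± 0.125 at day 3 (SD, n = 3 each). Each knockdown library was above each control library of its day. A two-sided exact permutation test gave p = 0.1 at both days, the smallest that 3 against 3 libraries can give. In both siRNA groups the ratio was lower at day 3 than at day 1. By comparison, the ratio of Lipe to Pnpla2 was 0.276 ± 0.0298 and 0.353 ± 0.0417 at day 1 and 0.564 ± 0.0453 and 0.537 ± 0.0129 at day 3 (SD, n = 3 each). Its groups did not overlap at day 1, where the knockdown libraries were also higher (two-sided exact permutation p = 0.1), and overlapped at day 3 (p = 0.5 in the same exact test).

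**Figure D2:**
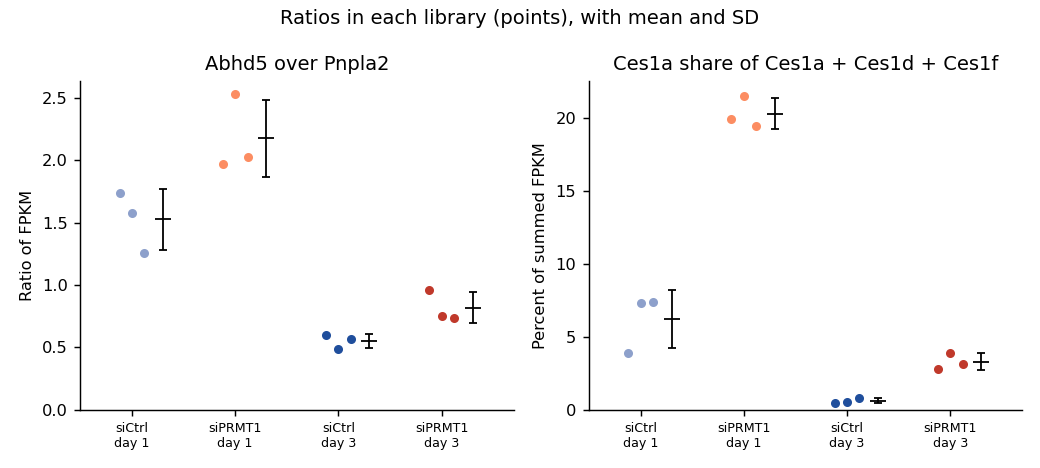
Ratio of Abhd5 to Pnpla2 FPKM (left) and the percentage of Ces1a in the summed FPKM of Ces1a, Ces1d and Ces1f (right) in each library, by group. Points are the 3 libraries, bars are the mean with its SD, and both axes start at 0. In both panels the 3 siPRMT1 libraries of a day lie above the 3 siCtrl libraries of that day.

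Lipe encodes hormone-sensitive lipase, which acts mainly on diglycerides, and is found at 25379527 to 25398486 of chromosome 7 (GRCm38, minus strand). Its FPKM at day 1 was 7.11, 9.08 and 11.5 in control and 6.43, 6.58 and 7.09 in knockdown libraries. The highest knockdown library was just below the lowest control library, and the log2 fold change of -0.50 (SE 0.153) did not pass the test (adjusted p = 0.0854, edgeR). FPKM at day 3 came to 108, 114 and 106 in control and 66.3, 73.8 and 75.5 in knockdown libraries. The groups were far apart, and Lipe fell by 0.61 on the log2 scale (SE 0.0712, adjusted p = 3.56e-05, edgeR). The changes at the 2 days differed by -0.09 (95% interval -0.46 to 0.29, adjusted p of the interaction = 0.793). At day 1 Lipe was called in 3 of 9 alternatives. These were DESeq2 (log2 fold change -0.51, adjusted p = 0.0213), no filter on low counts (-0.51, adjusted p = 0.0281, edgeR) and all 12 libraries in 1 model (-0.53, adjusted p = 0.0138, edgeR). Of the 6 fits without 1 library, Lipe was called in 1, without siCtrl replicate 1 (-0.66, adjusted p = 0.0210, edgeR). Of the exon bases of Lipe, 19.6% overlap genes on the other strand, 4732471J01Rik and Gm38968, which had 14 to 416 counts per library against 679 to 11421 for Lipe, and without a stated strand setting their reads cannot be told apart.

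Mgll encodes monoglyceride lipase, which cleaves the last fatty acid and also degrades the endocannabinoid 2-arachidonoylglycerol, and is found at 88724412 to 88828360 of chromosome 6 (GRCm38, plus strand). Its FPKM at day 1 was 0.23, 0.14 and 0.17 in control and 0.27, 0.25 and 0.24 in knockdown libraries, from 14 to 45 counts per library. The knockdown values were just above the control values, and the log2 fold change of 0.40 (SE 0.237) did not pass the test (adjusted p = 0.338, edgeR). Its FPKM at day 3 was 5.96, 5.98 and 6.54 in control and 3.35, 3.48 and 3.45 in knockdown libraries. Every knockdown library was far below every control library, and the log2 fold change was -0.85 (SE 0.0856, adjusted p = 1.22e-05, edgeR). Mgll was 1 of 2 members whose change differed between the days past both thresholds, with a difference of -1.22 (SE 0.213, adjusted p of the interaction = 0.00216, edgeR), and the call held in all 12 fits without 1 library (-1.49 to -1.13). Over all 14612 genes tested for the interaction, 3.47% were called lower and 4.77% higher.

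Pnpla3 encodes a lipid droplet protein related to adipose triglyceride lipase that takes part in triglyceride and phospholipid remodelling, and is found at 84167784 to 84189521 of chromosome 15 (GRCm38, plus strand). It had 0, 0 and 1 count in the siCtrl and 0, 1 and 0 counts in the siPRMT1 libraries at day 1, so a difference at day 1 was not detectable at this depth. At day 3 it had 103, 87 and 117 counts (0.99, 1.11 and 0.94 FPKM) in control and 60, 88 and 79 counts (0.54, 0.65 and 0.62 FPKM) in knockdown libraries. In FPKM the groups did not overlap, and Pnpla3 fell by 0.74 on the log2 scale (SE 0.141, adjusted p = 0.00218, edgeR). Its exons overlap the microRNA gene Mir6392, which had 0 counts in all 12 libraries.

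Pnpla8 encodes a calcium-independent phospholipase of mitochondria and peroxisomes and is found at 44269130 to 44315935 of chromosome 12 (GRCm38, plus strand). Its FPKM was 10.1, 9.01 and 6.47 in control and 8.21, 8.92 and 7.52 in knockdown libraries at day 1, and 16.8, 12.9 and 13.9 against 14.1, 12.2 and 11.8 at day 3. Groups overlapped at both days. The log2 fold change was -0.10 at day 1 (95% interval -0.46 to 0.25, adjusted p = 0.741, edgeR) and -0.20 at day 3 (95% interval -0.40 to 0.0038, adjusted p = 0.168, edgeR).

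**Figure D3:**
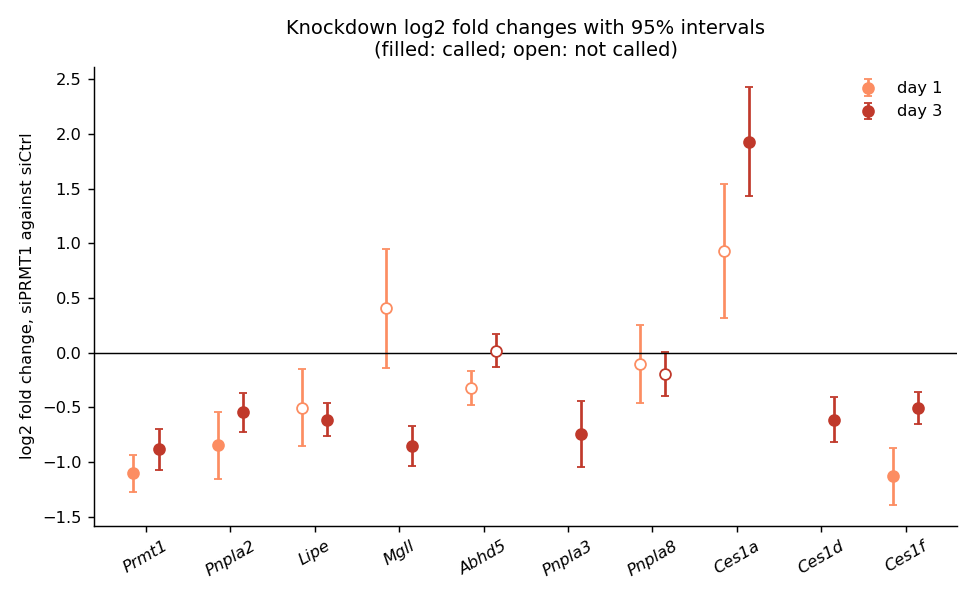
Log2 fold change of siPRMT1 against siCtrl cells (vertical axis) for Prmt1 and the 9 genes at day 1 (light) and day 3 (dark), with 95% intervals from edgeR's fit. Filled points are called and open points are not; Pnpla3 and Ces1d were not tested at day 1. At day 3, 6 of the 9 genes lie below 0 as filled points, Ces1a lies at 1.93, and Abhd5 and Pnpla8 are open.

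The 3 carboxylesterases lie in a row of 8 Ces1 genes, Ces1a to Ces1h, on the minus strand of chromosome 8 of GRCm38. The row spans 359605 bases, with no other counted gene in it. Ces1a runs from 93020214 to 93048192, Ces1d from 93166072 to 93197804, and Ces1f from 93256236 to 93279766. Because such neighbours are similar, the sequence around the codon of their catalytic serine is shown, to let the likeness of the 3 genes be seen. It covers coding bases 631 to 693 of the GENCODE transcripts, 63 bases, with the serine codon starting at coding base 661. Capitals mark the bases that differ from Ces1f, 10 in Ces1a and 7 in Ces1d.
Ces1a: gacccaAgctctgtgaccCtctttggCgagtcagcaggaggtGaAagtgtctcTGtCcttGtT
Ces1d: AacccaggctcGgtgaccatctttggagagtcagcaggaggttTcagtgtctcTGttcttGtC
Ces1f: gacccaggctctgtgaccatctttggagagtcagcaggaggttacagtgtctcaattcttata
Over the whole coding sequence, 78.5% of aligned bases were identical between Ces1a and Ces1d, 77.9% between Ces1d and Ces1f, and 73.9% between Ces1a and Ces1f. Of all 50-base windows of the transcript, 0.104% for Ces1a, 1.28% for Ces1d and 0.533% for Ces1f were also present in another Ces1 gene, and 0 of the windows of Ces1a were in Ces1d or Ces1f. At 100 bases no window was shared.

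At day 3 Ces1a rose with knockdown, whereas Ces1d and Ces1f fell. Its FPKM at day 1 was 0.26, 0.45 and 0.53 in control and 0.71, 0.81 and 0.80 in knockdown libraries, from 24 to 54 counts per library. The groups did not overlap, yet the log2 fold change of 0.93 (SE 0.266) did not pass the test (adjusted p = 0.0734, edgeR). By day 3 its FPKM was 0.26, 0.29 and 0.42 in control and 1.06, 1.56 and 1.19 in knockdown libraries, from 11 to 25 and from 57 to 101 counts. Each knockdown library was more than 2 times the highest control library. Ces1a rose by 1.93 on the log2 scale at day 3 (SE 0.233, adjusted p = 4.84e-05, edgeR), a mean FPKM 3.93 times the control level. Its call at day 3 held in all 6 fits without 1 library (1.76 to 2.21). At day 1 Ces1a was called in 3 of 7 alternatives. These were no filter on low counts (adjusted p = 0.0425), all 12 libraries in 1 model (adjusted p = 0.0321) and a replicate block (adjusted p = 0.0499, edgeR). Of the 6 fits without 1 library at day 1, Ces1a was called in 1, without siCtrl replicate 3 (log2 fold change 1.17, adjusted p = 0.00539). The changes at the 2 days differed by 1.01 (95% interval 0.19 to 1.83), which did not pass the test over all genes (adjusted p of the interaction = 0.101, edgeR), and did so without siCtrl replicate 1 of day 1 (1.35, adjusted p = 0.0228).

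Ces1d was nearly silent at day 1, with FPKM of 0.22, 0.19 and 0.19 in control and 0.22, 0.17 and 0.17 in knockdown libraries, from 8 to 18 counts per library. The day 3 FPKM was 8.71, 9.89 and 9.58 in control and 6.04, 6.55 and 5.90 in knockdown libraries. The groups did not overlap at day 3, and Ces1d fell by 0.61 on the log2 scale (SE 0.0978, adjusted p = 5.50e-04, edgeR). The interaction of siRNA and day was -0.41 for Ces1d (95% interval -1.01 to 0.19, adjusted p = 0.529).

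Ces1f, the most abundant of the Ces1 genes per length, had FPKM of 6.16, 5.50 and 6.46 in control and 2.63, 2.79 and 3.14 in knockdown libraries at day 1. Its log2 fold change of -1.13 (SE 0.113, adjusted p = 0.00302, edgeR) was the lowest of the 7 members tested at day 1, and the call held in all 6 fits without 1 library. FPKM at day 3 came to 45.9, 43.7 and 41.8 in control and 30.7, 31.7 and 30.5 in knockdown libraries. The groups did not overlap, and the log2 fold change was -0.51 (SE 0.0686, adjusted p = 1.48e-04, edgeR). That value lies at the fold threshold, and the call was lost without siCtrl replicate 1 (-0.49) or replicate 2 (-0.50) of day 3, with adjusted p up to 0.0017 over the 6 fits. It was also lost without the filter on low counts (-0.49) and in the 3 limma fits (-0.50 to -0.49), and held in 5 of 9 alternatives. Ces1f was the other member whose change differed between the days, by 0.65 (SE 0.122, adjusted p of the interaction = 0.00359, edgeR), the reduction being smaller at day 3, and this call held in all 12 fits without 1 library (0.57 to 0.71).

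Of the other Ces1 genes, Ces1g passed the filter, with 10 to 33 counts per library and log2 fold changes of -0.10 at day 1 (adjusted p = 0.890) and 0.08 at day 3 (adjusted p = 0.874, edgeR). Ces1b, Ces1c and Ces1h had at most 3 summed counts in any group. Ces1e had 0 counts at day 1 in either siRNA group, and 20 summed counts in siCtrl against 5 in siPRMT1 cells at day 3, too few to be tested. The share of Ces1a in the summed FPKM of Ces1a, Ces1d and Ces1f was 6.21% ± 1.99 in control and 20.3% ± 1.06 in knockdown libraries at day 1, and 0.608% ± 0.179 and 3.30% ± 0.566 at day 3 (SD, n = 3 each). The groups did not overlap at either day (two-sided exact permutation p = 0.1, the smallest possible). Ces1f made up most of the remainder in every group.

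Between day 1 and day 3 the genes rose in control cells. In siCtrl cells 8 of the 9 members were called higher, where 22.7% of the 13829 genes tested were called higher and 20.4% lower. In siPRMT1 cells all 9 were called higher, where 19% of 14224 genes were called higher and 17.4% lower. The log2 fold changes in siCtrl cells were 5.45 for Ces1d (SE 0.170), 4.96 for Mgll (SE 0.170), 3.50 for Lipe (SE 0.160), 2.79 for Ces1f (SE 0.102), 2.48 for Pnpla2 (SE 0.138), 1.03 for Abhd5 (SE 0.0759) and 0.70 for Pnpla8 (SE 0.155). In siPRMT1 cells the log2 fold changes were 5.03 for Ces1d, 3.73 for Mgll, 3.42 for Ces1f, 3.41 for Lipe, 2.80 for Pnpla2, 1.39 for Abhd5 and 0.61 for Pnpla8. Pnpla3 rose from 1 to 307 summed counts in siCtrl cells, a ratio of 420 in CPM with an exact 95% interval of 74.8 to 16639, and from 1 to 227 in siPRMT1 cells, a ratio of 232 (41.2 to 9205), intervals that cover counting error only. Ces1a was the exception in siCtrl cells, with a log2 fold change of -0.31 (SE 0.344, adjusted p = 0.460, edgeR), and rose by 0.71 in siPRMT1 cells (SE 0.173, adjusted p = 0.00259, edgeR). These 2 time courses share libraries with the knockdown comparisons and are not independent of them.

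The order of the levels changed along with this rise. At day 1 Abhd5 led in siCtrl cells with 46.4% ± 2.59 of the summed FPKM of the 9 genes, ahead of Pnpla2 with 30.7% ± 3.46, Lipe with 8.51% ± 1.53, Pnpla8 with 8.0% ± 2.17 and Ces1f with 5.61% ± 0.274. The libraries of Lipe and Pnpla8 overlapped, as did those of Ces1d and Mgll further down. At day 3 Pnpla2 led with 40.0% ± 2.24, followed by Lipe with 22.5% ± 0.798 and Abhd5 with 22.0% ± 1.29, whose libraries overlapped, and by Ces1f with 9.02% ± 0.672. In siPRMT1 cells at day 3 the order was Pnpla2 with 36.2% ± 2.30, Abhd5 with 29.5% ± 2.49, Lipe with 19.4% ± 0.801 and Ces1f with 8.37% ± 0.243 (SD, n = 3 throughout), and no 2 neighbours in that order overlapped. The summed FPKM of all 9 genes was 102 to 117 in control and 77.8 to 80.8 in knockdown libraries at day 1, and 469 to 501 and 358 to 376 at day 3.

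**Figure D4:**
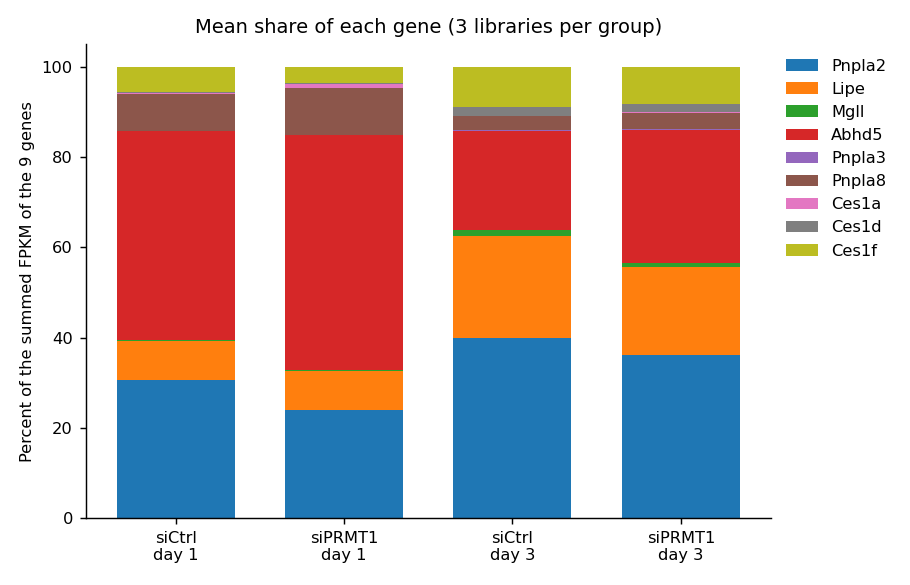
Mean share of each gene in the summed FPKM of the 9 genes (vertical axis, percent) in the 4 groups, averaged over 3 libraries each. Abhd5 holds the largest share in both day 1 groups (46.4% in siCtrl cells) and Pnpla2 in both day 3 groups (40.0% in control and 36.2% in knockdown libraries).

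Of the genes that control lipolysis, 9 of the 24 tested were called lower at day 3. A list of 29 such genes held hormone receptors, protein kinase A subunits, lipid droplet proteins, inhibitors of the lipases and carriers of their products. At day 1, 20 were tested, 3 were called lower (Cidec, Pparg and Cebpa) and 0 higher by edgeR, with a median log2 fold change of -0.29. At day 3, 24 were tested, 9 were called lower and 1 higher, with a median of -0.38. In the lower direction at day 1, 11 had an unadjusted p under 0.05 in edgeR, DESeq2 called 4 and limma 1. In the higher direction 1 had an unadjusted p under 0.05 in edgeR, and DESeq2 and limma called 0. At day 3, 20 of the 24 log2 fold changes were below 0, and 15 lower and 2 higher had an unadjusted p under 0.05 in edgeR. DESeq2 called 9 lower and 1 higher at day 3, and limma 7 and 0. The gene called higher, Npy1r, averaged under 1 FPKM and was not tested by limma. The shares of all genes called are those given with the members. Of the 29 genes, 5 (Fabp4, Cidec, Pparg, Cebpa and Plin1) also stand in the list of adipocyte markers. Cebpa, a master regulator of adipocyte genes, had a log2 fold change of -0.88 at day 1 (SE 0.152, adjusted p = 0.0156) and -0.46 at day 3 (SE 0.0707, adjusted p = 4.01e-04, inside the fold threshold). Pparg, the nuclear receptor that drives fat cell formation, had -0.52 (SE 0.0719, adjusted p = 0.00659) and -0.30 (SE 0.0631, adjusted p = 0.00407, edgeR), the second also inside the threshold.

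Among receptors, Hcar2, which couples to an inhibitory G protein and slows lipolysis, had FPKM of 5.24, 5.40 and 5.20 in control and 1.40, 1.06 and 1.58 in knockdown libraries at day 3. It fell by 1.98 on the log2 scale (SE 0.144, adjusted p = 8.14e-07, edgeR). Hcar1, the lactate receptor that also slows lipolysis, fell by 1.08 (SE 0.117, adjusted p = 2.08e-05). The one gene called higher, Npy1r, a further inhibitory receptor, had 0.26, 0.13 and 0.18 FPKM in control and 0.46, 0.54 and 0.52 in knockdown libraries, a log2 fold change of 1.37 (SE 0.216, adjusted p = 4.82e-04, edgeR).

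Several regulators on the droplet were also called lower at day 3. Plin1, which coats the droplet and binds ABHD5, had FPKM of 175, 196 and 179 in control and 104, 115 and 119 in knockdown libraries at day 3, and fell by 0.71 (SE 0.0753, adjusted p = 1.82e-05, edgeR). The mRNAs of G0s2 and Hilpda, inhibitors of adipose triglyceride lipase, fell together with that of Pnpla2. G0s2 had 303, 337 and 346 FPKM against 215, 227 and 208 (log2 fold change -0.61, SE 0.0739, adjusted p = 5.22e-05), and Hilpda had 29.0, 32.6 and 29.6 FPKM against 16.4, 17.4 and 17.7 (log2 fold change -0.83, SE 0.0873, adjusted p = 1.73e-05, edgeR). Cidec, which fuses droplets, was called lower at both days, with log2 fold changes of -0.90 (adjusted p = 0.0489) and -0.54 (adjusted p = 1.67e-04, edgeR). Acsl1, which activates fatty acids, Pde3b, which degrades cyclic AMP, and Aqp7, a glycerol channel, complete the 9, with log2 fold changes of -0.60, -0.51 and -0.58 and adjusted p of 3.40e-05, 3.02e-04 and 0.0138 (edgeR). Plin5, another droplet protein, was not called at day 3 (log2 fold change -0.21, adjusted p = 0.737), and Cidea was too low to be tested. Fabp4, the fatty acid carrier, had a log2 fold change of -0.13 at day 3 (adjusted p = 0.340). The knockdown change differed between the days for Hcar2 (-2.92, adjusted p = 0.0102), G0s2 (-1.05, adjusted p = 0.0347), Hilpda (-0.79, adjusted p = 0.00206) and Npy1r (0.96, adjusted p = 0.0245, interaction in edgeR). Of these, Hcar2, at 0.02 to 0.11 FPKM, was too low to be tested at day 1 alone, and G0s2 had 13 to 25 counts per library at day 1.

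**Figure D5:**
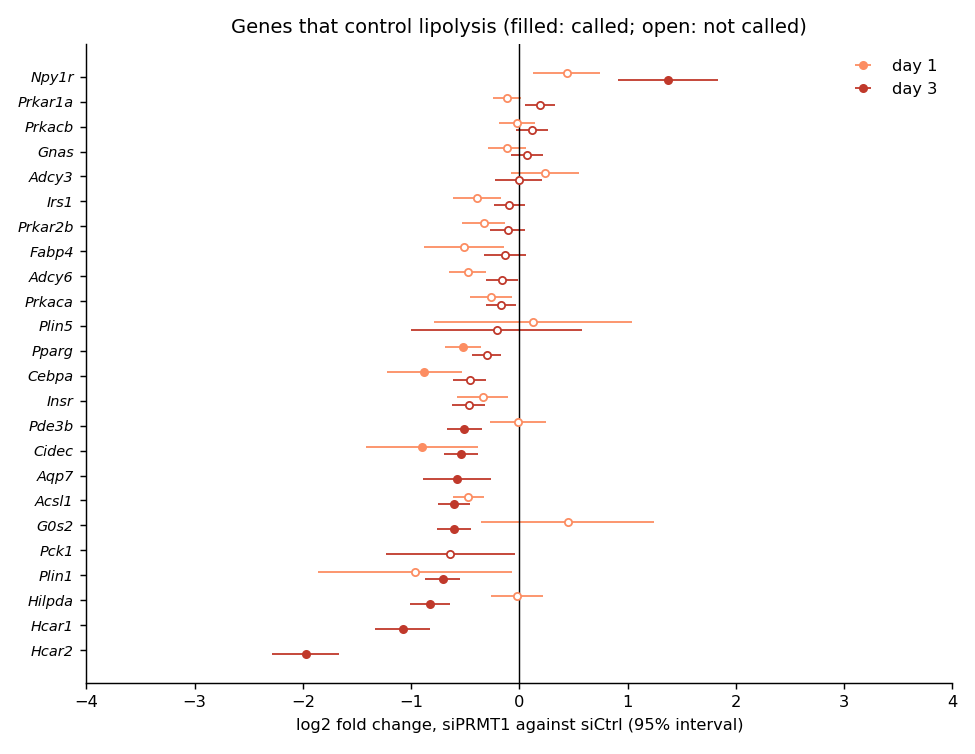
Log2 fold change of siPRMT1 against siCtrl cells (horizontal axis, with 95% intervals from edgeR's fit) for the 24 genes of the lipolysis control list tested at day 3, ordered by their change at day 3. Light points are day 1 and dark points day 3, filled where called and open where not. At day 3, 9 genes are filled to the left of 0, down to -1.98 for Hcar2, and Npy1r is filled at 1.37.

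Lipid hydrolases outside the 9 genes were called in both directions at both days. Over all genes tested, 1.95% were called higher and 1.61% lower at day 1, and 2.84% and 3.8% at day 3. Of a list of 28, 21 were tested at day 1, with 2 called higher (Liph and Pla1a) and 1 lower (Pla2g16), and at day 3 22 were tested, with 1 called higher (Pla1a) and 2 lower (Abhd3 and Lipg). DESeq2 called 1 higher and 1 lower at day 1 and 0 higher and 1 lower (Abhd3) at day 3, and limma called 1 higher at day 1 and 0 at day 3, where Pla1a, Abhd3 and Lipg averaged under 1 FPKM and were not tested by it. Their median log2 fold changes were -0.07 and -0.11. Pla1a, a phosphatidylserine phospholipase, had log2 fold changes of 0.66 at day 1 (SE 0.129, adjusted p = 0.0220) and 0.78 at day 3 (SE 0.219, adjusted p = 0.0244, edgeR). Lpl, lipoprotein lipase, which was the most abundant of the named lipases at day 3 with a mean of 614 FPKM in control and 441 FPKM in knockdown libraries, had a log2 fold change of -0.48 (SE 0.0670, adjusted p = 1.74e-04), inside the fold threshold. Pla2g16, an adipocyte phospholipase, had log2 fold changes of -0.69 (adjusted p = 0.0209) and -0.39 (adjusted p = 0.00459), Abhd3 of -0.91 (adjusted p = 0.115) and -0.74 (adjusted p = 0.00995), and Liph of 1.59 (adjusted p = 0.0296) and -0.89 (adjusted p = 0.114, edgeR). The values of Liph rest on 4 to 17 counts per library. Lipg, endothelial lipase, at a mean of 0.153 FPKM in control and 0.0633 FPKM in knockdown libraries, had -1.35 at day 3 (adjusted p = 0.0327). For the interaction, Liph (-2.46, adjusted p = 0.00401) and Pla2g6 (-0.64, adjusted p = 0.0115) were called lower and Ddhd1 (0.64, adjusted p = 0.00842, edgeR) higher.

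Of 18 further carboxylesterases, 3 passed the filter at each day (Ces1g, Ces2g and Esd), and 0 were called by edgeR, DESeq2 or limma in either knockdown comparison or in the interaction, with 0 at an unadjusted p under 0.05 in edgeR. Ces1g averaged under 1 FPKM and was not tested by limma. The knockdown log2 fold changes of these 3 genes ran from -0.17 to 0.14. Along the course of differentiation in siCtrl cells, the called genes of the control list with the smallest p were Acsl1 (log2 fold change 4.19), G0s2 (8.81), Fabp4 (5.81), Cidec (7.19) and Plin1 (7.99), and those of the hydrolase list were Lpl (2.80), Pla2g16 (4.35), Pla2g6 (1.76), Pla1a (-2.50) and Abhd3 (2.41), while Ces2g rose by 0.54. In siPRMT1 cells the same rule named Cidec (7.57), Acsl1 (4.08), G0s2 (7.75), Plin1 (8.22) and Fabp4 (6.21), and Pla2g16 (4.66), Lpl (2.58), Pla1a (-2.36), Pla2g6 (1.11) and Abhd4 (0.60), and 0 further carboxylesterases were called, with 2 at an unadjusted p under 0.05 in edgeR and 0 called by DESeq2 or limma.

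The starts of these genes were looked at because Pnpla2, Abhd5 and Ces1a differed in their change at day 3. RefSeq promoter sequences on GRCm38.p6, from 250 bases before to 50 bases after each start, were matched for 7 of the 9 genes, all but Ces1d and Ces1f, with more than 1 start for Lipe and Mgll. The 160 bases before the start are shown for Pnpla2 (chr7:141455028-141455187, plus strand), Abhd5 (chr9:122351456-122351615, plus strand) and Ces1a (chr8:93048193-93048352, minus strand), as an enzyme, its coactivator and the gene that rose. For Abhd5 the RefSeq start (122351616) lies after the start of the counted gene (122351539). Part of its printed bases, with the AGGTCA match, therefore lies within the counted gene. Capitals mark matches, on either strand, to the 6 motifs searched: AGGTCA (the hexamer of nuclear receptors), TTNNGCAA (a core of C/EBP sites), CACGTG (an E-box), CCAAT (the box of that name), GGGCGG (the GC box) and TATAAA (the TATA box).
Pnpla2: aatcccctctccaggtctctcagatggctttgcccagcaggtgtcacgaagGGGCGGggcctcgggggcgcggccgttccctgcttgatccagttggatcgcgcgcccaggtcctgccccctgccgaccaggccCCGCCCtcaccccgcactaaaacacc
Abhd5: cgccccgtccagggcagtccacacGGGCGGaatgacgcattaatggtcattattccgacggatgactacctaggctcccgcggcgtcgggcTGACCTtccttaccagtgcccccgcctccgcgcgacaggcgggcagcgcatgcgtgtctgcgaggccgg
Ces1a: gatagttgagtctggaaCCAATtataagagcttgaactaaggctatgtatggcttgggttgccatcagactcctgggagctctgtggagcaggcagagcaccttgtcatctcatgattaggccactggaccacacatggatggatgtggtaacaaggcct
GC content over the 300-base window was 65.3% for Pnpla2, 67.7% for Abhd5 and 47.0% for Ces1a, beside a median of 52.7% over 32851 promoters. A GC box was present at a start of 6 of the 7 genes, all but Ces1a, and in 35.7% of all promoters. CCAAT was present in Ces1a and Pnpla3 (37.4% of all promoters). CACGTG was present at 1 start each of Mgll and Lipe (7.15%), and AGGTCA in Abhd5 alone of the 7 (16.3%). Neither TATAAA (13.6% of all promoters) nor TTNNGCAA (10.8%) was in any window of the 7. The motifs do not overlap one another as searched, and these matches describe letters in a window, not binding.

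The genes whose pattern was most like each member across the 12 libraries were found by Pearson's r of log2 CPM, among 12465 genes that averaged 1 CPM or more. Because all 12 libraries share the rise from day 1 to day 3, r was close to 1 for most members and is given as a description. Pnpla2 was most like Prelp (0.9987), Anxa8 (0.9977) and Cebpa (0.997). Lipe was most like Ptpn6 (0.9988), Abhd15 (0.9984) and Rgcc (0.9984), and Mgll most like Tmem45b (0.9971) and Mlph (0.997). Abhd5 was most like Hibadh, Immt and Fam213a (0.9962 to 0.9968), Pnpla3 most like Thrsp, Apex2 and Sort1 (0.9972 to 0.9986), and Pnpla8 most like Larp4, Tmem33 and Uhrf1bp1l (0.9763 to 0.9867). For the carboxylesterases these were Sort1, Adig and Mcam for Ces1d (0.9986 to 0.9988), Car5b, Ifngr1 and Igf2 for Ces1f (0.9966 to 0.9982), and, at lower values, Gm8615, Dzip1l and Epha2 for Ces1a (0.8987 to 0.9359). After the mean of each day was subtracted, the leading genes were Gosr2, Mgst3 and Rhob for Pnpla2 (0.9865 to 0.9882), Tob1, Polr2m and Chst11 for Ces1f (0.9804 to 0.9897), Fam57b, Arhgef5 and Sbsn for Ces1d (0.9311 to 0.9436), and L3mbtl3, Loxl3 and Cd74 for Ces1a (0.9602 to 0.9705). On that scale the highest r between members were 0.917 for Pnpla2 with Ces1f and 0.91 for Pnpla2 with Lipe. The lowest was -0.865 for Ces1a with Ces1d. Some other pairs lay near 0, among them Pnpla2 with Mgll (0.0976), Pnpla2 with Pnpla8 (0.0383), Lipe with Pnpla8 (0.00638) and Mgll with Ces1f (-0.0251). All are over the 12 libraries, which still share the knockdown difference.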

How the data were processed

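Poly(A) RNA of 3T3-L1 cells was sequenced in 12 libraries. Per the labels and methods, the authors trimmed reads (cutadapt 1.11) before mapping (HISAT2 2.1.0). The submitters' processing notes also name RSEM 1.2.6 and mm10. The deposited counts are whole reads per gene without normalization. The authors derived the deposited FPKM from those counts, gene length and library total, and a recomputation gave differences of at most 0.005. The counting tool, strand setting and treatment of multi-mapping reads are not given in the sources used here.

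Groups came from the labels, and nothing there says that the replicates were separate cultures, so p-values measure the spread between these libraries, which may be technical. No pair of replicates was identical. The 9 genes, the lists of related genes and the tests were chosen with earlier results of these data known. Knockdown at each day (3 against 3 libraries), the interaction of siRNA and day (12 libraries) and day 3 against day 1 within each siRNA were fitted with edgeR 4.0.16 (R 4.3.3; TMM, filterByExpr, quasi-likelihood F test), with Benjamini-Hochberg adjustment over all genes tested. Standard errors were obtained as |log2 fold change| over the root of F. FPKM and their ratios at each day were compared with two-sided exact permutation tests, whose smallest p is 0.1, reached by every member whose groups did not overlap and were tested in this way. Alternatives were RLE scaling, no filter beyond 1 count in any library, DESeq2 1.42.0, a replicate block, the adjusted p alone, each library left out, all 12 libraries in 1 model, and limma 3.58.1 on log2(FPKM + 1) or log2(FPKM + 0.1) for genes averaging 1 FPKM or more, and on log2(FPKM + 1) without that filter. The methods were tested on simulated data. Named were all 9 members and Prmt1, the up to 5 called genes with the smallest p of each list in each comparison, list genes called in both knockdown comparisons, and the 3 genes most correlated with each member (log2 CPM with a prior count of 2). Further list genes were named after their values were seen. Of the genes these rules cover, 2 are not reported here, and the lipolysis list is counted without 1 of them. Positions are those of the deposited table (GRCm38), and coding sequences come from GENCODE M21.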

Additional observations from a re-analysis of the deposited data

Results flagged for a closer look

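The effect of the knockdown differed between day 3 and day 1 past both thresholds for 2 of the 9 genes. It did so for 7 of the 49 genes tested in the related lists. The test was the interaction term of edgeR's fit over 12 libraries. Over all 14612 genes tested, 4.77% were called higher and 3.47% lower. By the adjusted p alone, inside the fold threshold, the effect also differed for Abhd5 and for 5 further genes of the lists. Over all genes, 1799 had an adjusted p under 0.05 at any fold, and 1204 of them were called. Differences are given as the log2 fold change at day 3 minus that at day 1. For Mgll the difference was -1.22 (adjusted p = 0.00216, edgeR), from 0.40 at day 1 to -0.85 at day 3, with 14 to 45 counts per library at day 1. For Ces1f it was 0.65 (adjusted p = 0.00359), from -1.13 to -0.51. For Abhd5 it was 0.36 (adjusted p = 0.0228), from -0.32 to 0.02, with an adjusted p of 0.0196 to 0.0726 when 1 library was left out, above 0.05 in 5 of 12 such fits, and of 0.0570 under limma on log2(FPKM + 1) without the filter. In the lists it was -0.79 for Hilpda (adjusted p = 0.00206), -2.92 for Hcar2 (adjusted p = 0.0102), 0.96 for Npy1r (adjusted p = 0.0245), -1.05 for G0s2 (adjusted p = 0.0347), -2.46 for Liph (adjusted p = 0.00401), 0.64 for Ddhd1 (adjusted p = 0.00842) and -0.64 for Pla2g6 (adjusted p = 0.0115, edgeR). Liph had 4 to 17 counts per library over the 4 groups. At day 1 G0s2 had 13 to 25 counts per library and Hcar2 had 1 to 6. Groups of 3 libraries are too small for a test of single outlying libraries. By chi-squared per gene between counts, siCtrl replicate 3 of day 1 lay at 50.6 and 30.8 from replicates 1 and 2, which lay at 5.30 from each other. Pairs in the other groups lay at 4.14 to 15.8. This measure grows with depth. Without siCtrl replicate 3, 504 genes were called higher and 369 lower at day 1, against 267 and 220 with it. For the interaction these counts were 902 and 1005, against 697 and 507.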

How the results depend on the processing

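The number of members called lower at day 1 (2) was 1 under limma on log2(FPKM + 1) without the filter. Lipe was added without the filter on low counts, under DESeq2 and with all 12 libraries in 1 model, and Abhd5 by the adjusted p alone. The number was 1 to 3 when 1 library was left out (1 without siPRMT1 replicate 2 or 3, and 3, with Lipe added, without siCtrl replicate 1). The number called higher at day 1 (0) was 1 without the filter on low counts, 1 with all 12 libraries in 1 model and 0 to 1 when 1 library was left out (1 without siCtrl replicate 3), each time Ces1a. With the replicate number as a block it was also 1 (Ces1a, adjusted p = 0.0499), the only count for the members that the block moved by over 1.5 times. At day 3 the 1 higher call became 0 under limma on log2(FPKM + 1) and on log2(FPKM + 0.1), where Ces1a was under the minimum of 1 FPKM and not tested, while the 6 lower calls were 4 to 6 under the alternatives and 4 to 6 when 1 library was left out (4 without siCtrl replicate 2). For the interaction, the higher call (1) became 2 without the filter on low counts, 2 by adjusted p alone, 0 under limma on log2(FPKM + 1) with or without its filter, and 1 to 2 when 1 library was left out (2 without siCtrl replicate 1 of day 1). The lower call (1) became 2 under limma on log2(FPKM + 1), on log2(FPKM + 0.1) and on log2(FPKM + 1) without the filter, with Ces1d the added gene. Among changes that passed no test, the sign turned in some fits without 1 library. The log2 fold change then ranged from -0.27 to 0.039 for Pnpla8 at day 1 (above 0 without siCtrl replicate 1) and from -0.036 to 0.056 for Abhd5 at day 3 (below 0 without siCtrl or siPRMT1 replicate 1, -0.0063 and -0.036), and the interaction ranged from -0.31 to 0.081 for Lipe (above 0 without siCtrl replicate 1 of day 1), from -2.62 to 0.99 for Pnpla3 (above 0 without siPRMT1 replicate 2 of day 1) and from -0.21 to 0.056 for Pnpla8 (above 0 without siCtrl replicate 3 of day 1 or, at 0.034, replicate 1 of day 3). Counts of members higher at day 3 than at day 1 stayed within 1.5 times throughout. Same-numbered libraries correlated at -0.161 to 0.275 in their deviations from the group means, so the numbers were not taken to pair the libraries. Where the cause of a change is not named, the cause was not tested. Depth limits Pnpla3 at day 1 (0 or 1 count) and Ces1d at day 1 (8 to 18 counts).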
